A study of Mus musculus with 14 samples.

Results

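The Myc and Max network was followed in RNA sequencing of mouse bone marrow cells with PBS or interleukin-1β (IL-1β). Its members were taken by name as 10 of the 55487 genes in the count tables, namely Myc, Mycn, Mycl, Max, Mxd1, Mxd3, Mxd4, Mxi1, Mga and Mnt. LSK (Lin-Sca1+c-kit+) cells, which hold the stem and multipotent progenitor cells, and LK (Lin-c-kit+) myeloid progenitors were sorted from C57BL/6 recipients of heterozygous Jak2V617F (Jak2VF/+) bone marrow. In the donors the mutant allele had been switched on by Mx1Cre, which the interferon-responsive Mx1 promoter drives after pI-pC, and the recipients had been lethally irradiated. Treatment ran for 16 weeks, with PBS or IL-1β given 3 times a week. All LSK and LK groups carried the mutant allele, so that no LSK or LK library here was wild type. Bone marrow mesenchymal stromal cells (MSC) came from C57BL/6 mice without the allele, were cultured for 21 days, and received PBS or 5 ng/ml IL-1β in the dish for 72 h. There were 3 PBS and 2 IL-1β libraries each for LSK and LK cells, and 2 of each for MSC. The study's legends give the LSK and LK numbers as those of treated mice. The labels do not say whether each library was 1 mouse, or whether the MSC libraries were separate cultures, so p-values measure the spread between these libraries, which for MSC may be technical.

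Proteins of this network bind DNA in pairs through a basic helix-loop-helix leucine zipper. Max is the shared partner. With Max, the Myc proteins recognise E-boxes of the sequence CACGTG and raise transcription of genes for ribosome production, nucleotide synthesis and cell growth, whereas Mxd proteins, Mxi1 and Mnt compete for Max and recruit Sin3 and histone deacetylases, and Mga takes Max into a repressive Polycomb complex. In bone marrow Myc is known for its role in the balance of stem cell self-renewal and differentiation, and Mycn shares that role.

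The sequence near the start is shown for 4 members, because Mycn gave the largest change of any member with IL-1β and the windows of Mxd4, Mnt and Max held an E-box. The sequences are from RefSeq (GRCm38.p6), on the strand of the gene, 5′ to 3′, out of windows reaching from 250 bases before to 50 bases after the annotated start. Capitals mark CACGTG in Mxd4, Mnt and Max. In Mycn they mark 2 runs of letters that hold TTTGGCGC or TTTCGCGC on either strand, 8-base forms of the site of the E2F cell cycle factors.
Mycn, chr12:12941937-12942056, minus strand: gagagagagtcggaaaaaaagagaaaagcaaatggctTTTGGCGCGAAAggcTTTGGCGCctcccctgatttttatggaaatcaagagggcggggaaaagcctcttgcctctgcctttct
Mxd4, chr5:34187841-34187960, minus strand: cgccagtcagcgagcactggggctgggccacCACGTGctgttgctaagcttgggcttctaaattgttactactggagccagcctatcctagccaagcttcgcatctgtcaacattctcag
Mnt, chr11:74830734-74830853, plus strand: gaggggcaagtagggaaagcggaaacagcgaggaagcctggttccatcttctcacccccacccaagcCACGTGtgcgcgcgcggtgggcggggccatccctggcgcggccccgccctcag
Max, chr12:76962246-76962308, minus strand: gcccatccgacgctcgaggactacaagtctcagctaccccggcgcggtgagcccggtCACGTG
The E-box, which reads the same on both strands, began 219 bases upstream of the start in Mxd4, 123 in Mnt and 3 in Max, where it spans the start. It was present in 3 of the 9 members with a window, and in 7.15% of the 32851 windows of the table. The E2F forms (TTTCCCGC, TTTCGCGC, TTTGCCGC or TTTGGCGC on either strand) were chosen after these windows had been read. They matched 3 times in Mycn, 2 of the matches overlapping, between 183 and 168 bases upstream. No other member with a window held one, and 2.26% of all windows did. Myc had no window, so its sequence was not searched for the E-box or the E2F forms. A match describes letters in this window and is not evidence of binding.

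By the annotation of the count tables (GRCm38, Ensembl release 100), Myc (ENSMUSG00000022346) lies at chr15:61985391-61990374 on the plus strand, Mycn (ENSMUSG00000037169) at chr12:12936093-12941914 on the minus strand and Mycl (ENSMUSG00000028654) at chr4:122995652-123002485 on the plus strand. Counts were summed over all annotated exons of a gene. Mxd3 overlaps Prelid1 on the opposite strand, whose counts summed to 44751 over the 14 libraries against 1141 for Mxd3. The counting is stated to use strand. Max and Mxd1 each overlap a predicted gene on their own strand, with 119 and 51 counts in all.

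Depth differed between treatments. Totals per library were 12172400 to 16271408 read pairs for PBS and 4393233 to 8641124 for IL-1β in LSK cells. In LK cells the ranges were 12804883 to 18544346 and 6367352 to 7652483, and in MSC 5834909 to 13155033 and 11681794 to 30871055. Depth and treatment cannot be told apart in LSK and LK cells. Sca-1 (Ly6a) and the other stem and progenitor markers separated the sorted fractions. Of 10 such genes, 9 were called higher in LSK than in LK cells with PBS and none lower. The shares of all genes were 19.4% and 12.4%. Macrophage genes were more abundant than mesenchymal genes in the libraries labelled MSC, so the label describes these cultures in part. The 14 macrophage genes, including Adgre1, Csf1r and Lyz2, summed to 21250 and 24840 CPM with PBS and to 42370 and 43670 CPM with IL-1β, against 1343 to 2874 CPM for 12 mesenchymal genes over the 4 libraries. PBS replicate 2 stood apart among the LSK libraries, with a chi-square per degree of freedom of 146 and 148 against the other PBS libraries, which gave 48.2 with each other. Among the LK libraries PBS replicate 1 did so, with 114 and 86.8 against 39.3. Mycn in LSK cells was called with IL-1β also without the former (edgeR adjusted p = 0.0301), and Mxi1 in LK cells was not called without the latter (edgeR adjusted p = 0.114).

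Levels between genes are compared as TPM (transcript share of a library), which corrects for gene length and depth but not for differences in composition between libraries. Among the LK PBS libraries, replicate 1 had the lowest Max by TPM (84.2) and the highest by the scaled CPM used below (152). TPM values of different libraries are to be read with that limit. Myc had the highest TPM of the network in LSK and in LK cells, and Max in MSC. In LSK cells with PBS the Myc level was 616, 210 and 490 TPM, and with IL-1β 275 and 278 TPM. In LK cells it was 283, 418 and 546 TPM with PBS and 389 and 353 TPM with IL-1β. MSC held far less Myc, at 23.2 and 21.7 TPM with PBS and 11.3 and 11.5 TPM with IL-1β. PBS replicate 2 gave the lowest Myc level of any LSK library.

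Below Myc in LSK cells with PBS came Max at 111 TPM, Mycn at 72.0 TPM, Mnt at 52.1 TPM, Mxd4 at 48.5 TPM, Mga at 42.1 TPM, Mxi1 at 23.1 TPM, Mxd3 at 15.8 TPM, Mxd1 at 11.8 TPM and Mycl at 1.34 TPM, as means of 3 libraries. Compared within each library, the order from Myc through Max, Mycn and Mnt to Mxd4 was the same in all 3, although Mnt and Mxd4 were close, at 61.5 and 60.9 TPM in replicate 1. Mxd4 and Mga changed places in replicate 2, where Mxi1, at 12.5 TPM, was below both Mxd3 and Mxd1, at 19.4 and 12.8 TPM. Mycl was the lowest in every library. In LK cells with PBS, Max at 114 TPM was again next, followed by Mnt at 27.6 TPM, while Mycn, at 5.24 TPM, stood next to last. In MSC with PBS, Max at 86.1 TPM and Mnt at 56.4 TPM led, then Mxd4 at 36.2 TPM, and only then Myc at 22.4 TPM, without overlap of neighbouring genes down to Mxd1.

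**Figure D1:**
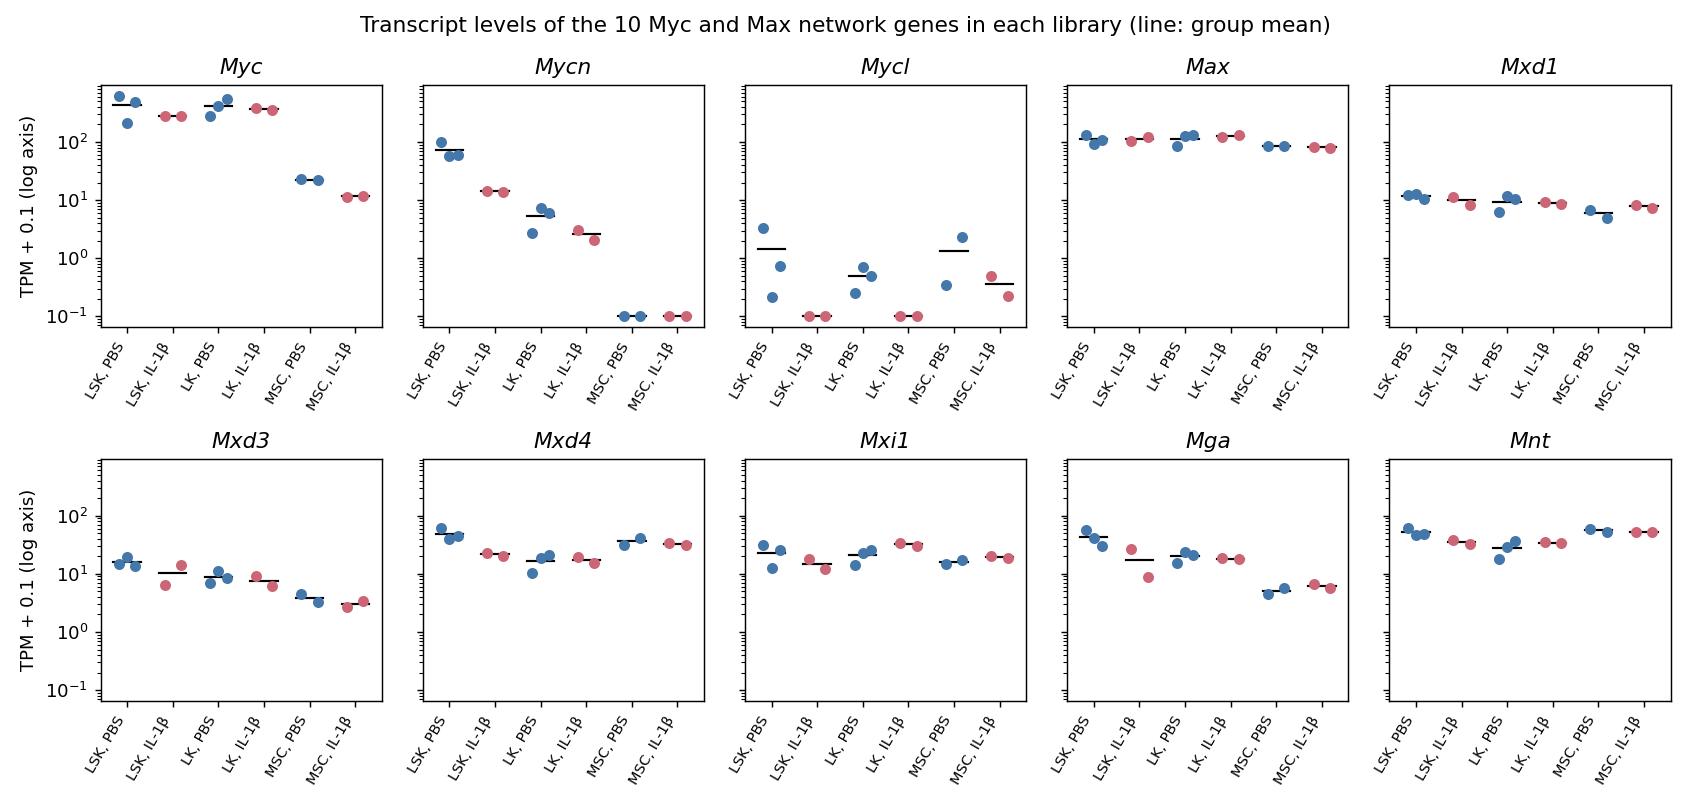
TPM plus 0.1 on a log axis for each of the 10 genes, 1 point per library, blue for PBS and red for IL-1β, with a line at the group mean. Myc lies between 210 and 616 TPM in LSK and LK cells and between 11.3 and 23.2 TPM in MSC, and Mycn steps down from LSK to LK cells and is at 0 counts in MSC.

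The ratio of Myc to its competitors was taken within each library as Myc TPM over the summed TPM of Mxd1, Mxd3, Mxd4, Mxi1 and Mnt, which does not depend on scaling between libraries. LK cells had ratios of 5.08, 4.54 and 5.40 with PBS and of 3.68 and 3.74 with IL-1β. For LSK cells they were 3.42, 1.60 and 3.45 (PBS) and 2.84 and 3.23 (IL-1β). In MSC the competitors exceeded Myc, with ratios of 0.198 and 0.182 with PBS and of 0.0979 and 0.102 with IL-1β. IL-1β libraries lay below every PBS library in LK cells and MSC and among them in LSK cells.

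Within the Myc family, Mycn made up 13.8, 21.3 and 11% of the summed TPM of Myc, Mycn and Mycl in LSK cells with PBS, and the IL-1β libraries gave 4.91 and 4.75%. In LK cells its share was 0.91, 1.68 and 1.08% with PBS, against 0.769 and 0.557% with IL-1β. The LSK shares with IL-1β were thus below every LSK share with PBS and above every LK share.

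**Figure D2:**
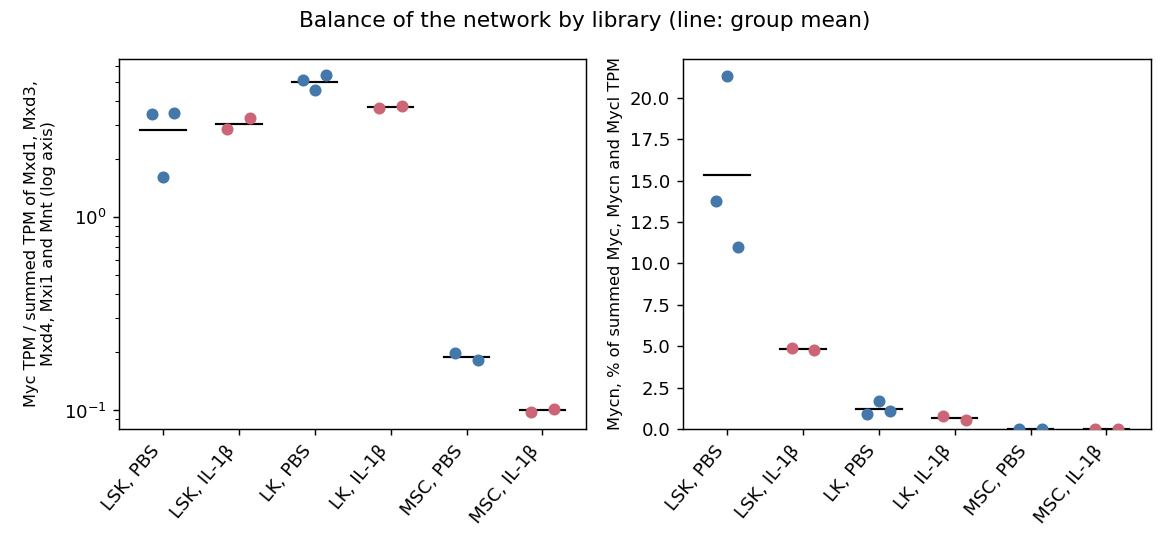
Left, ratio of Myc TPM to the summed TPM of its 5 competitors on a log axis, and right, the percentage of Myc family TPM that was Mycn, with 1 point per library and a line at the group mean. The Myc ratio is above 1 in all LSK and LK libraries and at most 0.198 in MSC, and the Mycn share is 11 to 21.3% in LSK cells with PBS and at most 4.91% elsewhere.

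Differences between LSK and LK cells were tested with PBS and with IL-1β over the 10 libraries, by the quasi-likelihood test of edgeR, with Benjamini-Hochberg adjustment over all genes tested. To be called, a gene had to differ by more than 0.5 on the log2 scale at an adjusted p below 0.05. With PBS, 4 of the 9 members tested were called higher in LSK cells and none lower, whereas 19.4% of the 13839 genes tested were called higher and 12.4% lower. The 4 were Mycn, a Myc paralogue, and the repressors Mxd4, Mnt and Mga. Myc itself was not called.

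Values that follow are CPM, the counts relative to library size after TMM scaling over the LSK and LK libraries. Mycn was 82.0, 63.3 and 59.3 CPM in LSK cells with PBS against 4.31, 6.86 and 6.18 CPM in LK cells. This was 11.7-fold higher in LSK cells (log2 difference 3.55 ± 0.26 SE, edgeR adjusted p = 8.41e-06), with no overlap between libraries. Cells lost from a mixture and less RNA in each cell cannot be told apart in these bulk samples, here and below.

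Mxd4, which encodes a Max partner found in differentiating and resting cells, was 130, 113 and 114 CPM in LSK cells and 44.5, 45.1 and 55.7 CPM in LK cells (log2 difference 1.30 ± 0.17, edgeR adjusted p = 0.00018). Mnt, the broadly expressed Max partner, was 71.7, 73.8 and 65.5 CPM in LSK cells and 42.0, 39.0 and 52.3 CPM in LK cells (log2 difference 0.66 ± 0.16, edgeR adjusted p = 0.00883). Mga was 217, 211 and 136 CPM in LSK cells and 117, 106 and 100 CPM in LK cells (log2 difference 0.80 ± 0.29, edgeR adjusted p = 0.0494). LSK libraries were above LK libraries without overlap for all 3 genes, and the libraries of 48.0% of all genes did not overlap. The call of Mga was the least secure and was lost with DESeq2's size factors (adjusted p = 0.0677), on log2 TPM (adjusted p = 0.0802) and without any one of 7 libraries, where the adjusted p ranged from 0.0987 to 0.186. Mnt was lost without LK PBS replicate 2 (adjusted p = 0.0512) and with no filter on low counts (adjusted p = 0.0513).

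Myc was 422, 193 and 397 CPM in LSK and 387, 331 and 467 CPM in LK cells with PBS, a log2 difference of -0.23 with a 95% interval from -0.78 to 0.33 (edgeR adjusted p = 0.531). The libraries overlapped, and without LSK PBS replicate 2 the difference was 0.052. Max was lower in every LSK library than in every LK library, at 112 to 120 CPM against 133 to 152 CPM, but was not called (log2 difference -0.31 ± 0.15, edgeR adjusted p = 0.14). Mxd1, Mxd3 and Mxi1 were not called either, with log2 differences of 0.12, 0.61 and -0.15.

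With IL-1β, Mycn alone was called among the 9 members, against 2.13% of all genes called higher in LSK cells and 2.27% lower. It was 16.1 and 18.4 CPM in LSK cells and 3.19 and 2.09 CPM in LK cells, 6.42-fold higher (log2 difference 2.68 ± 0.34, edgeR adjusted p = 0.00191), and stayed called without any one of the 10 libraries. Mxi1 was lower in LSK than in LK cells, at 41.3 and 32.4 CPM against 75.1 and 66.4 CPM, without passing the test (log2 difference -0.94 ± 0.29, edgeR adjusted p = 0.0916). It passed with DESeq2 (adjusted p = 0.0319). Mxd4 and Mnt kept a positive log2 difference, 0.54 and 0.25, and Mga had 0.13.

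**Figure D3:**
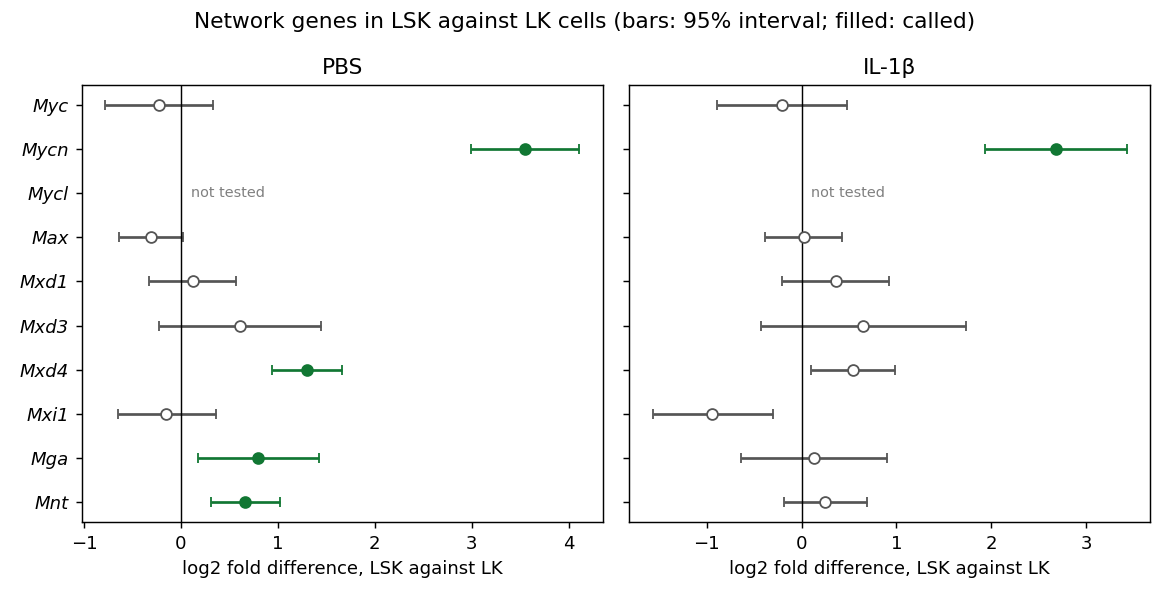
Log2 difference of LSK against LK cells for each gene with PBS (left) and IL-1β (right), from edgeR over the 10 libraries, with bars for the 95% interval and filled points for called genes. Mycn is at 3.55 with PBS and 2.68 with IL-1β. Mxd4, Mga and Mnt are called with PBS and have intervals nearer to 0 with IL-1β.

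Genes around Mlx, a relative of Max that pairs with the glucose sensor Mlxip, also differed between the fractions. With PBS, Mlxip (log2 difference 0.62) and the Mlx targets Arrdc4 (1.44) and Txnip (1.35) were called higher in LSK cells, and Mlx itself (-1.26) lower, of 4 genes tested. Among 12 genes of Myc protein turnover, 4 were higher and 1 lower, beside 19.4% and 12.4% of all genes, led by the kinase genes Pim2 (2.57) and Pim1 (1.45) and by the deubiquitinase gene Usp28 (1.17). Of 10 coactivator genes, Ruvbl1 (-0.54) and Ruvbl2 (-0.59), which encode helicases of the TIP60 complex, were lower. None of 8 genes for Sin3, NCoR and histone deacetylases was called by edgeR or DESeq2, with 2 higher at an unadjusted p under 0.05, and limma-voom called 1 higher.

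In LSK cells 1 of the 9 members tested was called with IL-1β. Mycn was lower, whereas 0.312% of 13132 genes were called lower and 0.32% higher. It was 82.0, 63.3 and 59.3 CPM with PBS and 16.1 and 18.4 CPM with IL-1β, a 3.86-fold fall (log2 fold change -1.95 ± 0.28, 95% interval -2.58 to -1.31, edgeR adjusted p = 0.0207). In raw counts this was 1083, 817 and 1019 against 136 and 75. The direction held in all 15 alternatives, with log2 fold changes from -2.27 to -1.80, but the call was lost with limma-voom (adjusted p = 0.0717). It was also lost without IL-1β replicate 1 (log2 fold change -1.87) or 2 (-2.01), fits that kept 1 IL-1β library. Most calls over all genes were lost in those 2 fits too. This comparison and that of LSK with LK cells share the LSK PBS libraries.

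Of 10 markers of stem and progenitor cells, edgeR called 1 lower, DESeq2 3 and limma-voom 0, beside 83, 891 and 21 of all genes called in either direction. Of the 10, 8 had a negative log2 fold change in LSK cells with IL-1β, with a median of -0.71 against -0.061 over all genes, and their summed level was 1534 to 2147 CPM with PBS and 1209 to 1319 CPM with IL-1β. The one called by edgeR was Hlf, a transcription factor of stem cells, at 198, 124 and 126 CPM against 39.8 and 28.4 CPM (log2 fold change -2.08 ± 0.31, edgeR adjusted p = 0.0225). Mecom was 47.0, 43.0 and 42.0 CPM against 16.6 and 10.5 CPM without being called (edgeR adjusted p = 0.0596). Neutrophil granule genes rose, 5 of 13 being called higher with a median log2 fold change of 3.32, among them Lcn2 (6.71), Ms4a3 (4.16) and Elane (3.32). Of 4 lymphoid genes tested, Dntt (-5.36) and Flt3 (-2.42) were lower. The part of these markers in the fall of Mycn was not tested.

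Myc was not called in LSK cells with IL-1β. It was 422, 193 and 397 CPM with PBS and 257 and 304 CPM with IL-1β (log2 fold change -0.22 ± 0.33, edgeR adjusted p = 0.757). The IL-1β values lay inside the range of the PBS values, and the 95% interval, from -0.97 to 0.53, leaves changes of either sign possible.

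Mxd4 was lower in both IL-1β libraries than in any PBS library, at 67.4 and 68.1 CPM against 130, 113 and 114 CPM, and its difference did not pass correction (log2 fold change -0.77 ± 0.23, edgeR adjusted p = 0.143). It was called when LSK and LK libraries were fitted together (edgeR adjusted p = 0.0253), a fit that called 1228 of all genes against 83 in the main test. Mga was 217, 211 and 136 CPM with PBS and 139 and 53.7 CPM with IL-1β, overlapping (log2 fold change -0.91 ± 0.40, edgeR adjusted p = 0.264). Mnt was lower without overlap at 60 to 61 CPM and Max higher without overlap at 127 and 172 CPM against 112 to 120 CPM, neither being called. In all, 4 of the 9 members did not overlap between treatments, and 39.6% of all genes did not. Mxd1, Mxd3 and Mxi1 overlapped, with log2 fold changes of 0.085, -0.28 and -0.24.

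Mycl was too low for the test. The PBS libraries held 44, 2 and 13 counts of it in LSK cells and 4, 14 and 7 in LK cells. All IL-1β libraries of both fractions held 0, which allows up to 0.239 CPM over both LSK libraries and 0.218 CPM over both LK libraries. Such limits cover counting error only, since reads were not tagged by molecule.

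In LK cells with IL-1β, Mxi1 was the one member called, and higher, against 6.77% of 12835 genes called higher and 2.57% lower. Mxi1, another Max partner that opposes Myc, was 48.7, 44.7 and 55.4 CPM with PBS and 75.1 and 66.4 CPM with IL-1β (log2 fold change 0.52 ± 0.13, edgeR adjusted p = 0.0435). The libraries did not overlap, but the change lay just past the fold threshold. It was no longer called with limma-voom (adjusted p = 0.0608), with upper-quartile factors (log2 fold change 0.48), without the filter on low counts (0.49) or in the joint fit (adjusted p = 0.441). The call was also lost without any one of 4 of the 5 libraries, in fits that called fewer of all genes. Mlx was called higher as well (0.52, edgeR adjusted p = 0.0267), and so was Pim1 (0.77, edgeR adjusted p = 0.00905).

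Mycn in LK cells was 4.31, 6.86 and 6.18 CPM with PBS and 3.19 and 2.09 CPM with IL-1β, lower without overlap and not called (log2 fold change -1.12 ± 0.38, edgeR adjusted p = 0.108). Myc was 387, 331 and 467 CPM against 339 and 308 CPM, overlapping (log2 fold change -0.28 ± 0.15, edgeR adjusted p = 0.277). Mga was 117, 106 and 100 CPM against 90.4 and 87.0 CPM, not overlapping (log2 fold change -0.28 ± 0.11, edgeR adjusted p = 0.147). Mxd1 was also lower without overlap, at 20.5 and 19.3 CPM against 21.6 to 23.6 CPM. In all 4 of the 9 members did not overlap, as did 45.7% of all genes. Max, Mxd3, Mxd4 and Mnt overlapped, with log2 fold changes of 0.027, -0.35, -0.053 and 0.20. Beside these values, 10 of 14 neutrophil granule genes were higher in LK cells with IL-1β, with a summed level of 19050 and 22480 CPM against 4537 to 9787 CPM with PBS, and 7 of 14 erythroid genes were lower, at 3224 and 3837 CPM against 5690 to 7398 CPM. Their part in the values of the members was not tested.

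The responses of LSK and LK cells were compared by the interaction of population and treatment. None of the 9 members was called by edgeR, DESeq2 or limma-voom, with 1 at an unadjusted p under 0.05 by edgeR, and edgeR called 4 of 13839 genes (0.0289%). That member was Mxd4, with a response lower by 0.76 in LSK cells on the log2 scale (SE 0.26, edgeR adjusted p = 0.247). The difference was -0.87 ± 0.42 for Mycn (edgeR adjusted p = 0.37) and 0.021 ± 0.40 for Myc (edgeR adjusted p = 0.99). The fall of Mycn in LSK cells was thus not shown to differ from its change in LK cells.

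In MSC, Myc was lower with IL-1β. It was 20.5 and 20.6 CPM with PBS and 10.3 and 10.8 CPM with IL-1β, where CPM is scaled over the 4 MSC libraries, a 1.95-fold fall (log2 fold change -0.97 ± 0.15, 95% interval -1.33 to -0.60, edgeR adjusted p = 0.0171). It was the one member called of 8 tested, against 4.31% of 13239 genes called lower and 7.14% higher. The direction held in all 12 alternatives, from -1.03 to -0.92. The call was lost without IL-1β replicate 1 (log2 fold change -0.92) or 2 (-1.0), fits that kept 1 IL-1β library. Most calls over all genes were lost in those fits too. The fall was not tested against the responses of LSK or LK cells, which came from other mice and another kind of treatment.

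The other members of MSC were not called in the main test. Mxd1, whose product replaces Myc on Max as cells differentiate, was 15.3 and 12.1 CPM with PBS and 19.1 and 17.7 CPM with IL-1β (log2 fold change 0.44 ± 0.18, edgeR adjusted p = 0.165). Mxi1 was 32.9 and 41.3 CPM against 46.0 and 44.3 CPM (log2 fold change 0.27, edgeR adjusted p = 0.249). Both were higher without overlap. Max, at 100 and 109 CPM against 97.8 and 98.4 CPM, and Mnt, at 90.0 and 85.7 CPM against 79.9 and 82.0 CPM, were lower without overlap, with log2 fold changes of -0.093 and -0.12. In all 5 of the 8 members did not overlap, and 61.2% of all genes did not. Mxd3, Mxd4 and Mga overlapped, with log2 fold changes of -0.31, -0.16 and 0.25. Over the 12 alternatives Mxd1 ran from 0.27 to 0.62, the highest without PBS replicate 2. Mga ran from 0.065 to 0.53, the highest without PBS replicate 3. Mycn had 0 counts in all 4 libraries, which allows 0.0984 to 0.5 CPM in single libraries. Mycl had 2 and 41 counts with PBS and 16 and 2 with IL-1β and was not tested in the main test. With no filter on low counts it was called lower, with most of its PBS counts in 1 library.

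**Figure D4:**
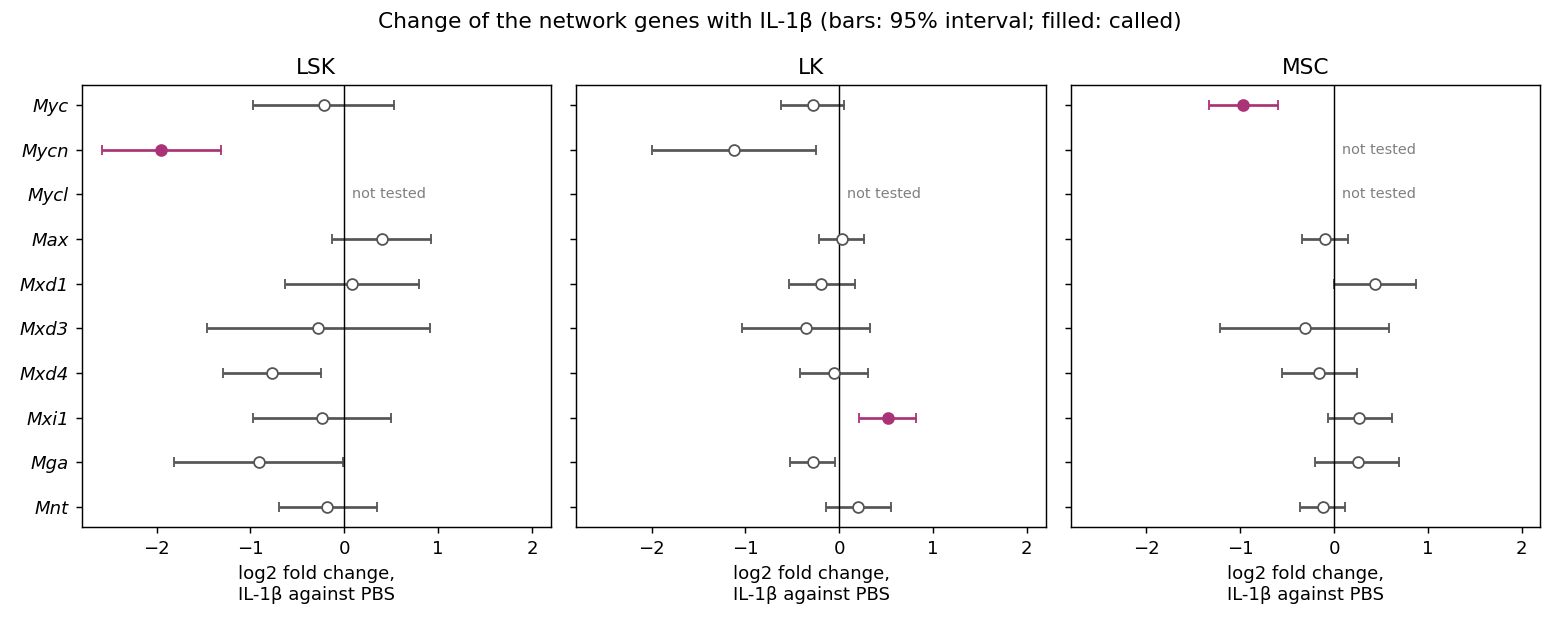
Log2 fold change of IL-1β against PBS for each gene in LSK cells, LK cells and MSC, from edgeR within each population, with bars for the 95% interval and filled points for called genes. Mycn in LSK cells (-1.95), Mxi1 in LK cells (0.52) and Myc in MSC (-0.97) are the called changes.

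Genes that Myc is known to raise were examined as a list of 62, with roles in ribosome production, nucleotide and polyamine synthesis, protein folding and the cell cycle. The study had named Myc targets, Odc1 among them, from these same LSK libraries, so the direction of the list there is not independent evidence. The paper called genes with DESeq2 and reported gene set enrichment of MYC targets in these LSK cells. It also reported that enrichment among genes shared with granulocytes and with CD34+ cells of myelofibrosis patients. Odc1 was reported higher by RT-qPCR in LSK cells with IL-1β, ODC1 in both kinds of patient cells, and NPM1 and SRM in the granulocytes. The enrichment, the RT-qPCR and the patient data were not examined here. In LSK cells with IL-1β, 56 of the 62 had a positive log2 fold change, as had 46.5% of all genes, and the median was 0.54 against -0.061. None was called by edgeR. At an unadjusted p under 0.05 there were 23 genes, all higher. Without overlap, 38 of the 62 were higher and 2 lower, and the libraries of 39.6% of all genes did not overlap. DESeq2 called 11, all higher, and limma-voom none. Of all genes, edgeR called 83, DESeq2 891 and limma-voom 21. The summed level of the list was 13080 to 16910 CPM with PBS and 22250 and 23810 CPM with IL-1β, so the groups did not overlap while the Myc level did.

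Odc1, the rate-limiting enzyme of polyamine synthesis, was 314, 573 and 307 CPM in LSK cells with PBS and 847 and 1116 CPM with IL-1β (log2 fold change 1.33 ± 0.33, edgeR adjusted p = 0.0986). Npm1, the nucleolar chaperone nucleophosmin, was 1280, 1729 and 1608 CPM against 2467 and 3331 CPM (log2 fold change 0.95 ± 0.29, edgeR adjusted p = 0.145). Ncl, which encodes nucleolin, was 1808, 3206 and 1987 CPM against 4746 and 3624 CPM (log2 fold change 0.88 ± 0.34, edgeR adjusted p = 0.217). Every IL-1β library exceeded every PBS library for these 3 genes, and none passed correction. Srm, a polyamine enzyme, was also higher without overlap (0.87, edgeR adjusted p = 0.191), whereas Cdk4 (0.65), Cad (0.073) and Ccnd2 (-0.14) overlapped. On the TPM scale, on which the median of all genes moved by -0.36 in LSK cells, 44 of the 62 were positive with a median of 0.16 against -0.39 over all genes. The median of the list exceeded that of all genes by 0.50 to 0.78 in the 15 alternatives.

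The list gave few calls in LK cells, and part of it fell in MSC. In LK cells, 2 of 62 were called higher, below the 6.77% of all genes, Hk2 (hexokinase, 1.02) and Tmem97 (0.50), and the median was -0.06 against -0.026. In MSC, 10 of 61 were called lower and 1 higher, beside 4.31% and 7.14% of all genes, with a median of -0.22 against 0.0044. Those lower included Nme1 (-0.90), a nucleotide kinase, Mcm5 (-0.79), a replication helicase subunit, Ccnd2 (-0.78), the cyclin D2 gene, Odc1 (-0.68) and Npm1 (-0.59). Hk2 was the one higher (0.65). With either IL-1β library of MSC left out, the calls of the list were lost, as were most calls over all genes. The list median was then -0.24 without replicate 1 and -0.27 without replicate 2. The responses of the list in LSK and LK cells differed in the same direction for 56 of 62 genes, being more positive in LSK cells. Those of 43.6% of all genes were more positive there, and the median difference was 0.55 against -0.12 over all genes. None of the list was called by edgeR or limma-voom, which called 4 and 1 of all genes. DESeq2 called 6 of the list higher, beside 334 of all genes. By edgeR 20 were higher at an unadjusted p under 0.05. On the TPM scale 36 of the 62 differences were positive, with a median of 0.06 against -0.55 over all genes.

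**Figure D5:**
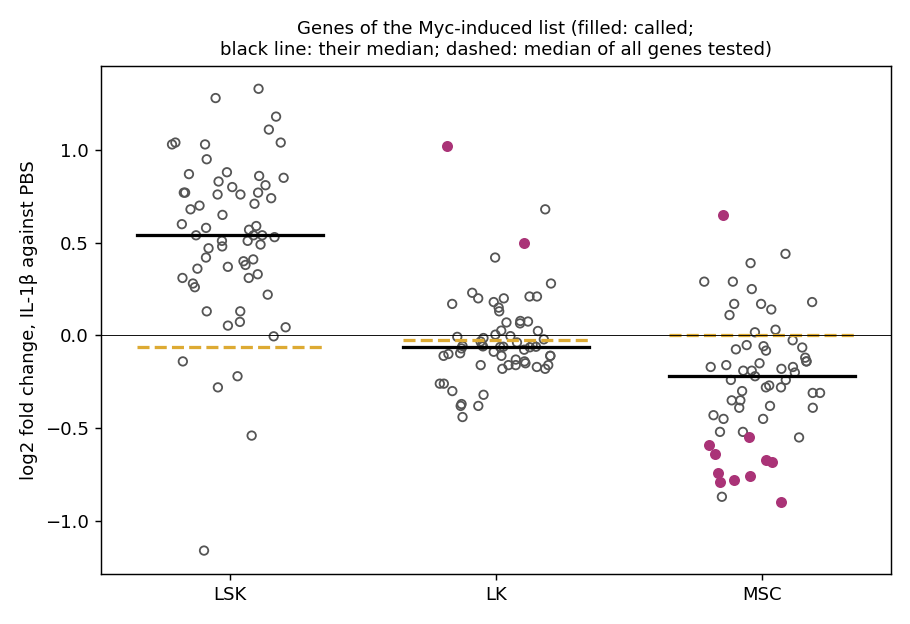
Log2 fold change of IL-1β against PBS for genes of the Myc-induced list, 62 in LSK and LK cells and 61 in MSC, 1 point per gene with filled points for called genes, a black line at the list median and a dashed line at the median of all genes tested. The list median is 0.54 in LSK cells, -0.06 in LK cells and -0.22 in MSC.

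Between the fractions, 32 of the 62 genes were called lower and 3 higher in LSK than in LK cells with PBS. Of all genes, 12.4% were called lower and 19.4% higher. The median of the list was -0.55 against 0.085 over all genes. Bysl (-1.38), a ribosome assembly gene, Hspe1 (-1.39), a mitochondrial chaperonin, and Tmem97 (-1.45) were the lowest, and Tert (2.95), Hk2 (1.16) and Ccnd2 (0.75) the highest. On the TPM scale 6 were lower. With IL-1β, edgeR called 0 lower and 1, Sord (0.77), higher, beside 2.27% and 2.13% of all genes. DESeq2 called 2 lower and 1 higher, limma-voom called 0, and without the filter on low counts edgeR called 1 lower and 6 higher. The median was -0.09. The comparisons with PBS libraries share them, and the lower list level in LSK cells with PBS stands on the same 3 libraries as the positive change with IL-1β.

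Of 20 cell cycle genes in MSC, 8 were called lower with IL-1β, beside 4.31% of all genes. All 20 had a negative log2 fold change, with a median of -0.74, while 50.4% of all genes had a positive one. Mki67, the proliferation marker, was 41.9 and 42.4 CPM with PBS and 18.3 and 14.4 CPM with IL-1β (log2 fold change -1.35 ± 0.15, edgeR adjusted p = 0.00762), and Pcna (-1.47) and Rrm2 (-1.28) fell as well. With either IL-1β library left out, the calls of the 20 were lost, as were most calls over all genes. Their median was then -0.75 without replicate 1 and -0.77 without replicate 2. In the same libraries 7 of 14 macrophage genes were called higher and 1 lower, where 7.14% and 4.31% of all genes were. Lyz2 (1.77), Cd14 (1.40) and Adgre1 (1.32) led, beside the summed levels given above. The mesenchymal list had 1 of 10 genes higher, Vcam1 (0.64), and 1 lower, Kitl (-0.72). Their part in the fall of Myc and of the cell cycle genes was not tested. In LSK and LK cells edgeR and limma-voom called 0 of the 20 cell cycle genes. At an unadjusted p under 0.05 there was 1 lower in LSK cells, and 1 higher and 4 lower in LK cells, and DESeq2 called 0 in LSK cells and 2 lower in LK cells.

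Of 10 genes that Myc is known to repress, edgeR and limma-voom called 0 of 9 tested in LSK cells, with 3 lower at an unadjusted p under 0.05, and DESeq2 called 1 lower. Txnip, an Mlx target that lowers glucose uptake, was 415 to 466 CPM with PBS and 244 and 289 CPM with IL-1β in LSK cells without being called (log2 fold change -0.68 ± 0.24, edgeR adjusted p = 0.191). In LK cells Cdkn1a, the cell cycle inhibitor p21, was lower (-1.29 ± 0.27, edgeR adjusted p = 0.0215) and Clu, a secreted chaperone, higher (4.01). In MSC Clu was higher (2.95) and Cdkn1c (-3.23) and Gadd45a (-0.73) lower. Of all genes, 6.77% were called higher and 2.57% lower in LK cells, and 7.14% and 4.31% in MSC. Cdkn1b, the inhibitor p27, was not called in any of the 3. Between fractions with PBS, 5 of 9 were higher in LSK cells and 1 lower, beside 19.4% and 12.4% of all genes. Cdkn1c (3.49) and Ndrg1 (2.39) led.

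Genes for the partners of the network gave few calls with treatment. Among the 10 coactivator and 8 corepressor genes, edgeR and limma-voom called 0 with IL-1β in LSK cells, LK cells and MSC, with 2 to 4 of them at an unadjusted p under 0.05 in each population, and DESeq2 called 1 coactivator gene higher in LSK cells. Of the 12 turnover genes, Pim1 was the one called, in LK cells and in MSC (0.65). Arrdc4 was called higher in MSC (1.30).

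Across the 10 LSK and LK libraries, the genes whose log2 CPM ran closest to Myc among 9172 genes were Kat5 (Pearson r 0.955), Prkra (0.95), Tmem39b (0.942), Edc3 (0.939) and Pdk2 (0.932). The lowest were Brd9 and Arsa (both -0.944), Zranb1 (-0.93), Mtdh (-0.913) and Tra2a (-0.912). These values describe libraries that share groups, depth and the low Myc level of LSK PBS replicate 2. Kat5, which encodes an acetyltransferase, was also on the list of coactivators.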

How the data were processed

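The 14 libraries were prepared by rRNA depletion with NEBNext Ultra II chemistry. Per the file headers and the submitters' processing notes, the authors trimmed reads (fastp 0.20.0), aligned them with HISAT2 2.0.1 to GRCm38, sorted them with SAMtools 1.10, and deposited raw counts of read pairs per gene from featureCounts 2.0.2 with reverse-stranded counting on Ensembl release 100. The methods instead name GenomicAlignments and DESeq2. The labels write the IL-1β dose as 0.5 g and the paper in μg. Of 55487 gene IDs, 55141 matched a symbol.

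The count test was the robust glmQLFit of edgeR 4.0.16 under R 4.3.3, after filterByExpr and TMM scaling, within each population or over the 10 LSK and LK libraries. The standard error is the log2 fold change divided by the square root of F. TPM was computed from counts and the deposited gene lengths. A call needed an adjusted p below 0.05 and a change of more than 0.5 on the log2 scale. The number of counts per library, 4393233 to 30871055, limits the precision of low genes. The tests were checked on simulated data.

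The members and gene lists were chosen with earlier results of these data known. Genes of the lists are named where they were among the 3 largest called changes in a direction, as fixed examples (Odc1, Npm1, Ncl, Cad, Cdk4, Ccnd2, Srm, Cdkn1a, Cdkn1b, Txnip), or as closest to Myc. Ly6a, Csf1r and Mecom are named as markers. Prelid1 is named for its overlap.

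Deviations from the group means of LSK and LK libraries of one number correlated at 0.21, 0.13 and 0.47 for PBS. For IL-1β the value was 0.1, just past the limit of 0.1, and with 2 libraries per group it is necessarily the same for both numbers. PBS libraries of different numbers gave -0.38 to 0.16, so number 3 alone stood clearly above them. The labels do not say that libraries of one number share a mouse. Alternatives were DESeq2 1.42.0, limma-voom (limma 3.58.1), upper-quartile factors, the size factors of DESeq2, no filter, at least 10 reads in 2 libraries, no fold threshold, a replicate block, a joint fit, and each library left out. limma on log2(TPM + 0.5) was added after the data were seen. A further IL-1β MSC library named in a header was not analysed here. Figures were drawn with matplotlib 3.10.9.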

Additional observations from a re-analysis of the deposited data

Results flagged for a closer look

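Members whose libraries all moved one way with IL-1β in one population and all the opposite way in another were singled out. Max was higher in both IL-1β libraries of LSK cells than in any PBS library (log2 fold change 0.40) and lower in both of MSC (-0.09). Mxd1 was lower in both IL-1β libraries of LK cells (-0.19) and higher in both of MSC (0.44). The difference between populations was not tested for either gene, since the tables were normalized apart, and none of these changes was called. In LSK cells, LK cells and MSC, 39.6, 45.7 and 61.2% of all genes had libraries that did not overlap between treatments.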

How the results depend on the processing

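For single members, 805 of the values under the alternatives kept their direction and side of the threshold, 25 lost the call, 8 gained one and 41 changed sign. Each that changed sign had no call in the main test.

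With limma-voom, 0 members were called in LSK cells and 0 in LK cells. With DESeq2, 11 Myc-induced genes were called in LSK cells, and 2 members between LSK and LK cells with IL-1β. With no filter, 2 members were called in LSK cells, 0 in LK cells, 2 in MSC and 2 between LSK and LK cells with IL-1β, and 8 Myc-induced genes in LSK and 1 in LK cells. With upper-quartile factors, 0 members and 1 Myc-induced gene were called in LK cells, and with at least 10 reads in 2 libraries 1 Myc-induced gene. In the joint fit, 2 members and 12 Myc-induced genes were called in LSK cells, and 0 and 0 in LK cells. On log2 TPM, 0 members and 0 Myc-induced genes were called in LK cells, and 6 Myc-induced genes in MSC. The cause of these changes was not tested. All genes called moved as well. In LSK cells they numbered 83 by edgeR, 891 by DESeq2, 21 by limma-voom, 869 with no filter and 1228 in the joint fit. In LK cells they numbered 1199 by edgeR, 1536 by DESeq2, 986 by limma-voom, 1844 with no filter, 489 in the joint fit and 774 on log2 TPM. In MSC there were 1515 by edgeR, 2354 with no filter and 914 on log2 TPM. Between LSK and LK cells with IL-1β there were 609 by edgeR, 1337 by DESeq2, 182 by limma-voom and 1410 with no filter.

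With single libraries left out, members called ranged from 0 to 1 in LSK and LK cells, 0 to 3 in MSC, 2 to 4 between LSK and LK cells with PBS, 1 to 2 with IL-1β, and 0 to 0 for the difference of responses. Myc-induced genes called ranged from 0 to 7 in LSK cells, 0 to 3 in LK cells and 0 to 18 in MSC. Where a group kept 1 library, it was assumed to vary like the other group, and calls over all genes moved widely as well.

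The replicate block kept all calls between LSK and LK cells (4 members with PBS, 1 with IL-1β, 0 for the difference). Within LSK and LK cells treated and control libraries share only a number (deviations correlated at 0.13 and -0.03 in LSK and at -0.1 and 0.03 in LK cells). There the block gave 2 members and 9 Myc-induced genes in LSK cells, Mga being added (-1.25, edgeR adjusted p = 0.0193), and 1 and 3 in LK cells. It called 702 of all genes in LSK cells and 2331 in LK cells, against 83 and 1199 in the main test. With the block, values of changed sign were Myc in LSK cells (0.016), Mxd4 in LK cells (0.05), Mga between LSK and LK cells with IL-1β (-0.019) and the difference of responses of Mxd3 (-0.031). No paired analysis was possible for MSC because the groups share 1 number.

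Other sign changes were small or uncalled. On log2 TPM they were Mxd1 in LSK (-0.27), Mxd4 in LK (0.096), Mxi1 between LSK and LK cells with PBS (0.091), Max (-0.20) and Mga (-0.24) with IL-1β, and the differences of responses of Myc (-0.41), Max (-0.18), Mxd1 (-0.23) and Mxd3 (-0.49). With upper-quartile factors it was Max in LK (-0.015), and with limma-voom Max between LSK and LK cells with IL-1β (-0.013) and the response of Mxd3 (-0.21). Over all single libraries left out, these uncalled values crossed 0. In LSK cells with IL-1β, Mxd1 ran from -0.047 to 0.31 and Mxd3 from -1.03 to 0.26. In LK cells Max ran from -0.028 to 0.073 and Mxd4 from -0.24 to 0.11, and in MSC Mxd4 from -0.35 to 0.093. Between LSK and LK cells with PBS, Myc ran from -0.5 to 0.052, Mxd1 from -0.068 to 0.21 and Mxi1 from -0.36 to 0.09, and with IL-1β Max from -0.21 to 0.16, Mxd3 from -0.13 to 1.14 and Mga from -0.79 to 0.66. The difference of responses ran from -0.26 to 0.3 for Myc and from -0.74 to 0.63 for Mxd3. Depth limits Mycl in every population and Mycn in MSC, where counts were 0 or few.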
